A study of Mus musculus with 123 samples.

Results

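Galanin and 2 of its receptors were followed through injured and uninjured sensory neurons of the mouse dorsal root ganglion (DRG). The members are the 3 genes Gal, Galr1 and Galr2, found by their symbols among the 24134 genes measured. Gal encodes the precursor of galanin, a neuropeptide that DRG neurons make at low levels and induce after their axons are cut. Released galanin acts on G protein-coupled receptors, of which Galr1 encodes one that mainly couples to inhibitory Gi proteins and Galr2 one that also couples to Gq and phospholipase C. Galanin from injured sensory neurons has been linked to both neurite growth and the control of pain.

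The right sciatic nerve was transected (SNT) at mid thigh in mice aged 2 months, and the ganglia of the opposite side of the same mice served as the control. At day 3 the mice were CAST/Eij male X C57BL/6 female offspring, from L5 ganglia by the labels and L3 to L5 by the study's methods, with reads of 50 bp. The methods give these offspring as female, and their labels give no sex. After removal of 11 outliers by the authors, 41 SNT-side and 18 control-side neurons remained, beside 3 pooled libraries per side that were parts of 1 lysate. At day 7 the mice were C57BL/6 of both sexes, with reads of 75 bp, and 33 SNT-side and 14 control-side neurons were kept. Strain, sexes sampled, read length and sequencer changed together with the day, so their parts in any contrast between days cannot be told apart. Neurons were picked by hand, and the SNT side may include neurons whose axons do not run in the cut nerve. No label ties a cell to an animal, which makes the cells of one side and day 1 sample, and differences between such samples carry no test.

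Library totals ranged from 277390 to 1849130 counts in the kept cells of day 3, from 261351 to 1018545 in those of day 7 and from 563462 to 2003817 in the pools. Levels are counts scaled to a library total of 1e6 (CPM), and intervals of counts and shares cover counting error only, because reads carried no molecular identifiers. The 6 neuron markers summed to at least 6190 CPM in every kept cell. In the pools the 10 glial markers summed to between 5950 and 6760 CPM on the SNT side and between 12800 and 15500 CPM on the control side, the 8 immune markers to between 12.2 and 16.7 CPM against 1.38 to 4.77 CPM, with 2 and 4 of the 8 at 0, and the 5 erythrocyte markers to between 6.96 and 12.5 CPM against 0 to 10.7 CPM. In the kept cells of day 3 the glial markers had a median sum of 3900 CPM (highest 11500) on the SNT side and 3790 CPM (highest 14200) on the control side, and the immune markers 11 CPM (highest 3320) and 0.597 CPM (highest 59.9). At day 7 the medians were 750 and 4720 CPM for the glial markers and 4.64 and 0 CPM for the immune markers, and the erythrocyte markers reached 4670 CPM in 1 SNT cell. The part of other cells in the differences below was not tested.

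On GRCm38 (GENCODE M21) Gal lies on the minus strand at chr19:3409915-3414544 and Galr2 on the plus strand at chr11:116280939-116283938. The authors aligned to mm9, and the deposited tables hold no coordinates. The stretch of the Gal coding sequence that holds the mature peptide is shown because it is the product whose message changed. It spans bases 91 to 192 of the 423 coding bases, in exons 3 and 4 of 6 (chr19:3411592-3413340, minus strand, including the intron between them), and was read from the GENCODE transcript. Capitals mark the dibasic cleavage codons before the peptide and, after its 29 codons, the glycine codon used for amidation with the second dibasic pair.
Gal: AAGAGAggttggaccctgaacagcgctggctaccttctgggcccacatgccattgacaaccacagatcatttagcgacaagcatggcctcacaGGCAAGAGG

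Gal was far higher on the SNT side of the day 3 pools. The 3 SNT libraries held 3876, 4323 and 4447 CPM and the 3 control libraries 5.50, 8.34 and 12.4 CPM, so no library of one side came near the other. The means were 4215 ± 300 CPM (SD, n = 3) and 8.76 ± 3.4798 CPM (SD, n = 3). The log2 change after TMM scaling was 9.10 (SE 0.19), with an adjusted p of 1.0e-31 in edgeR's quasi-likelihood test over 13509 genes. Gal had the smallest p of all of them and the 5th largest rise. At an adjusted p below 0.05 and a log2 change past 1, 15.9% of the genes tested were called in either direction and 8.83% as higher, and 21.1% had every SNT library above every control library. The control level rested on 4, 7 and 7 reads, and the ratio of summed counts was 499 (exact 95% interval 316 to 843). These p-values compare 2 pools over technical spread, not animals, and fewer cells of a type cannot be told apart from less RNA per cell in a pool. The sides were taken from the column names. The sample identifiers in the same table pair them the opposite way, and all 6 source labels read intact, so under the identifiers each pooled difference would change sign. By the column names Atf3, a gene induced by axon damage, had a TMM-scaled mean of 1549 CPM in the SNT pools and 12.7 CPM in the control pools. In the day 3 cells, whose sides come from their titles, its means were 1476 and 17.7 CPM without TMM scaling.

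**Figure D1:**
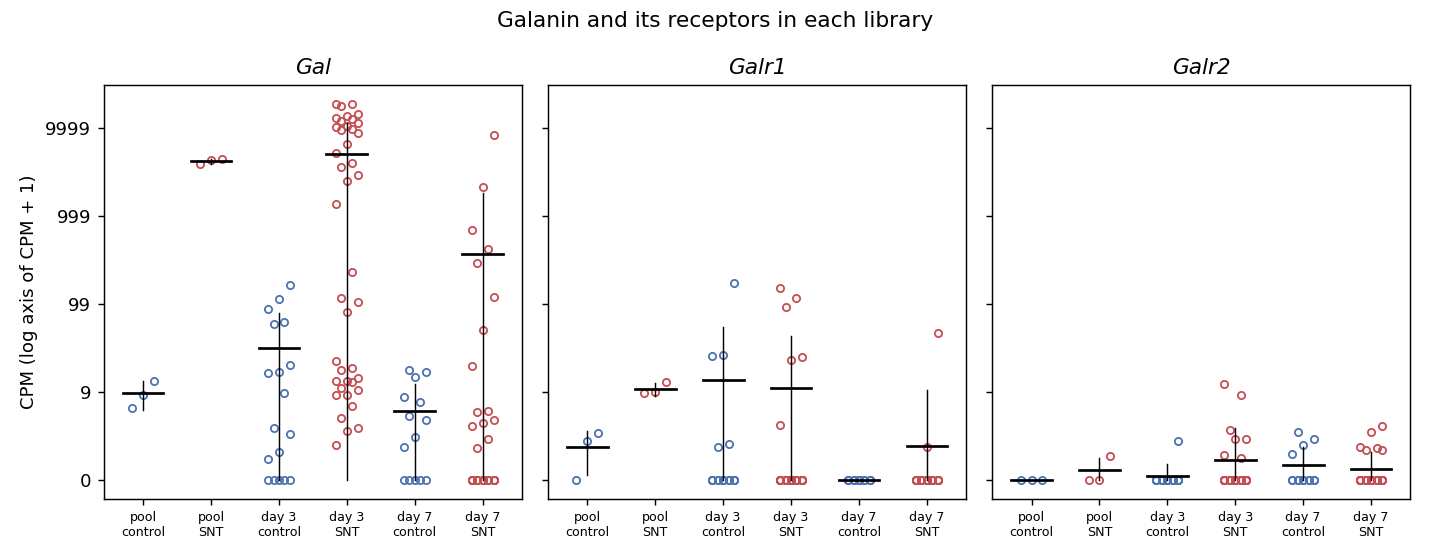
Levels of Gal, Galr1 and Galr2 in the pooled libraries and in each kept cell, as CPM on a log axis of CPM + 1, with blue for the control side and red for the SNT side. Horizontal bars are means and vertical bars 1 SD, cut at 0, and points at 0 overlap. Gal in the day 3 SNT cells falls into a high band above 1000 CPM and a low band that overlaps the control cells.

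In single neurons at day 3 Gal was turned on in about as many SNT-side cells as it was not. Over the 41 SNT cells the lowest value was 1.49, the median 1385 and the highest 18957 CPM, with a mean of 5097 ± 6261 CPM (SD over cells). Over the 18 control cells the lowest was 0, the median 5.83 and the highest 164 CPM, with a mean of 30.6 ± 47.6 CPM. The log2 ratio of mean CPM + 1 was 7.335, the 2nd largest among the 14139 genes that averaged 1 CPM or more on a side, and 13.5% of them had a ratio past 1 in either direction. In 22 of the 41 SNT cells (53.7%, exact interval 37.4% to 69.3%) Gal exceeded the highest control cell, and 1.89% of genes reached that number of cells.

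The high and low cells were well apart. Above 1000 CPM lay 21 SNT cells, the lowest of them at 1385 CPM. The next cell had 230 CPM and the 19 others at most 115 CPM, within the range of the control side. No control cell passed 1000 CPM, and 0 of 18 cells allows a share of up to 16.7% when a count of 0 is read as up to 3. In the highest cell Gal took 1.90% of all counts.

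Gal was turned on within the cells that carried the injury marker Atf3, a transcription factor induced by axon damage. Atf3 was above its highest control value of 75.7 CPM in 30 of the 41 SNT cells, where it ranged from 951 to 4436 CPM. All 22 cells with Gal above the control range were among these 30. The 11 SNT cells without raised Atf3 had Gal between 2.91 and 80.2 CPM, inside the control range. The other 8 cells with raised Atf3 kept Gal between 1.49 and 115 CPM, with Atf3 as high as 2335 CPM in the cell with the least Gal. Within the 30 cells, which come from 1 sample, the Spearman's rho of Gal with Atf3 was 0.14.

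**Figure D2:**
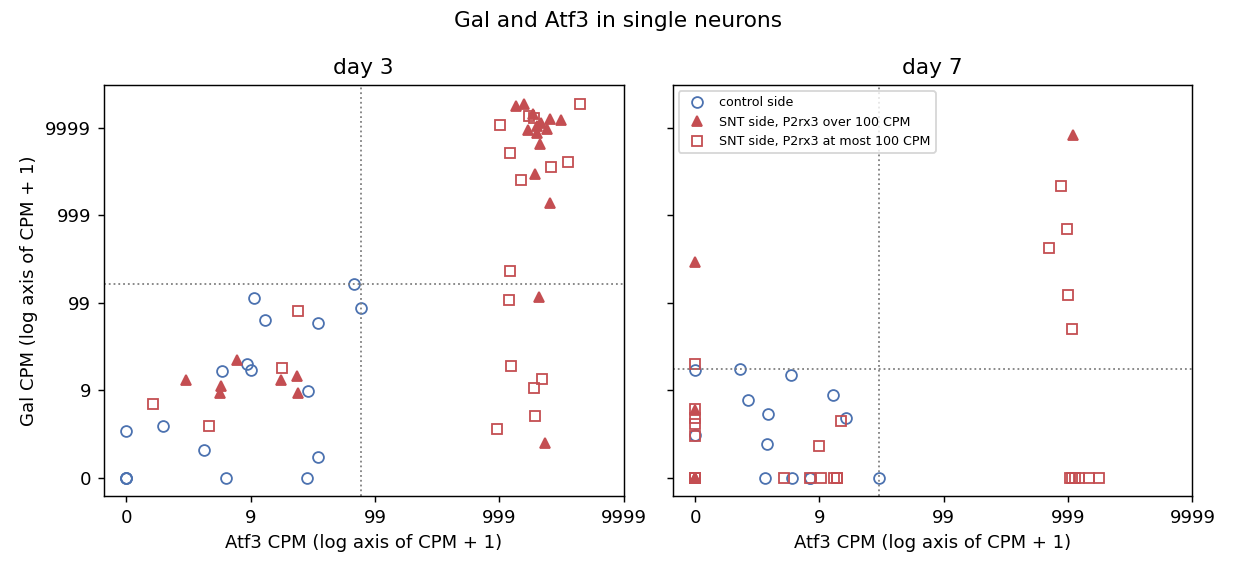
Gal against Atf3 in each kept cell at day 3 and day 7, in CPM on log axes of CPM + 1, with dotted lines at the highest control cell. At day 3 the 22 cells above the Gal line all lie right of the Atf3 line, and 8 cells right of it stay below the Gal line. At day 7 there are 6 cells on each side of the Gal line among the 12 with raised Atf3.

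The 30 cells with raised Atf3 were then counted by markers of nociceptors and of large myelinated neurons. The marker levels used here were chosen after the values were seen, and no difference between these counts was tested. Of 15 cells with over 100 CPM of P2rx3, the ATP-gated channel of nonpeptidergic (NP) nociceptors, 13 had Gal above the control range. Of the 15 with at most 100 CPM, 9 did. Of the 17 with over 100 CPM of Calca, a marker of peptidergic nociceptors, 14 did, and these cells overlap those with P2rx3. With Nefh, the heavy neurofilament of large neurons, under 300 CPM, 17 of 19 cells had high Gal, with 300 to 1000 CPM 4 of 8, and with at least 1000 CPM 1 of 3. That last cell reached 10659 CPM of Gal with 1430 CPM of Nefh. The cell with the most Gal was low in P2rx3 (1.52 CPM) and Calca (13.7 CPM), with 132 CPM of Nefh. Of the 5 cells with over 100 CPM of Pvalb, a proprioceptor marker, 2 had Gal above the control range. The plot of markers in cells ordered by Gal shows cells of both kinds in its left part.

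**Figure D3:**
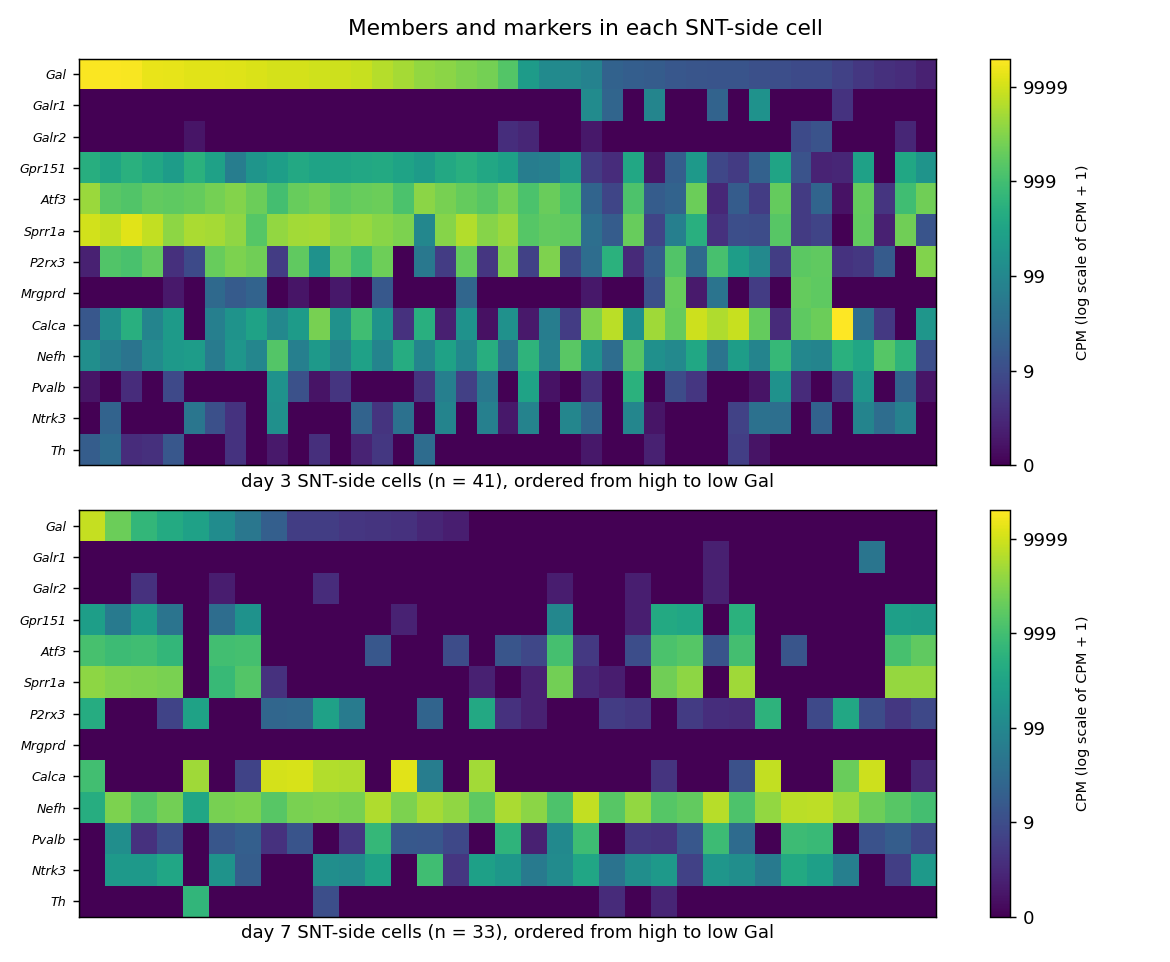
Members and marker genes in each SNT-side cell, 41 at day 3 and 33 at day 7, ordered from high to low Gal, with colour for CPM on a log scale of CPM + 1. At day 3 the 22 cells on the left share raised Atf3 and Gpr151 and hold no Galr1, and the cells with Galr1 lie to their right. At day 7 the high Gal levels are limited to a few cells on the left.

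Reads of Gal were also found on the control side at day 3, where 8 of 18 cells passed 10 CPM (44.4%, exact interval 21.5% to 69.2%). These 8 cells held between 7 and 82 reads of Gal each. The 5 control cells above 50 CPM had totals between 277390 and 1324364 counts and the other 13 between 437358 and 1368842. In these 5, Sprr1a, which injured neurons also induce, had a median of 48.9 CPM against 1.06 CPM in the 13 others, and Atf3 33.9 against 4.92 CPM, whereas Gpr151, raised in the same SNT cells as Atf3, had 2.78 against 7.143 CPM. Gal followed Sprr1a within control cells (rho 0.86, n = 18), while its rho was -0.08 with Gpr151 and -0.40 with the library total. On the SNT side rho with Sprr1a was 0.82 over 41 cells. At day 7 it was 0.11 over 33 SNT cells and -0.18 over 14 control cells.

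At day 7 Gal was high in few SNT-side neurons. The 33 SNT cells ranged from 0 to 8330 CPM with a median of 0 and a mean of 366 ± 1482 CPM (SD over cells). The 14 control cells ranged from 0 to 16.6 CPM with a median of 2.95 and a mean of 5.16 ± 6.12 CPM. The log2 ratio of means was 5.90, the 7th largest of 13701 genes, of which 10.3% had a ratio past 1 in either direction. Most SNT cells were thus at or below the control level, and the median turned the other way, at a log2 ratio of -1.98. Without the highest cell the ratio was 4.27.

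Gal exceeded the highest control cell in 8 of the 33 SNT cells (24.2%, exact interval 11.1% to 42.3%), a number that 12.9% of genes reached. Above 100 CPM there were 6 SNT cells and no control cell, and 0 of 14 cells, read as up to 3, allows a share of up to 21.4%. Above 1000 CPM there were 2 SNT cells. By sex label, female mice had means of 206 ± 548 CPM over 16 SNT cells and 6.08 ± 6.41 CPM over 7 control cells, and male mice 517 ± 2016 CPM over 17 and 4.24 ± 6.17 CPM over 7. The means had the same direction in both sexes, with most of each SNT mean in 1 cell (2147 CPM in females and 8330 CPM in males). The medians were 0 and 4.297 CPM in females and 1.95 and 1.39 CPM in males.

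The cells with raised Atf3 carried other markers at day 7. Of these 12 cells, 11 had at least 1000 CPM of Nefh and at most 100 CPM of P2rx3. Gal was above the control range in 5 of those 11, at values between 49.6 and 2147 CPM, and it was 0 in the other 6, whose Atf3 lay between 1039 and 1778 CPM. The 12th cell carried 461 CPM of P2rx3, 998 CPM of Calca (the precursor of calcitonin gene-related peptide, CGRP) and 480 CPM of Nefh, and it had the highest Gal of the day, 8330 CPM. Over the 12 cells the Spearman's rho of Gal with Atf3 was -0.62, with 6 of them tied at 0 of Gal. Ntrk3 encodes a receptor of large mechanosensory and proprioceptive neurons. Among cells with raised Atf3 and over 10 CPM of it, 9 of 14 at day 3 and 5 of 9 at day 7 had Gal above the control range of their day. The day 3 cells of this set were not all of the large kind. Those with high Gal included cells with 941, 1347 and 1973 CPM of P2rx3 and 283, 70.5 and 59.3 CPM of Nefh. These counts therefore do not compare like cells between the days. The markers of the sampled cells differed between the days, and the difference in the share of cells with high Gal was not tested.

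In 2 SNT cells of day 7 Gal was above the control range without Atf3. One held 289 CPM of Gal with 0 of Atf3, 0 of Sprr1a, 679 CPM of Th, 4884 CPM of Calca and 576 CPM of Tac1. The other held 18.8 CPM, from 6 counts, just above the control limit of 16.6 CPM.

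Galr1 (GRCm38 chr18:82392380-82406777, minus strand) rose in the day 3 pools from very low counts. The SNT libraries held 20, 10 and 18 reads (11.96, 8.70 and 8.98 CPM) and the control libraries 0, 2 and 1 (0, 2.38 and 1.77 CPM), so each SNT library lay above each control library. The log2 change was 2.88 (SE 0.82) with an adjusted p of 0.00739 by edgeR's quasi-likelihood test. With 3 control reads in all, the ratio of summed counts was 7.06 with an exact 95% interval of 2.28 to 35.4. Leaving out control library 2 moved the log2 change to 3.64, and a prior count of 2, larger than that used, moved it to 1.99.

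The single cells of day 3 did not show the rise in Galr1. On the SNT side 35 of 41 cells were at 0 and 5 (12.2%, exact interval 4.08% to 26.2%) passed 10 CPM, at 22.2, 23.8, 90.8, 117 and 152 CPM. On the control side 13 of 18 were at 0 and 3 (16.7%, exact interval 3.58% to 41.4%) passed it, at 24.4, 25.7 and 174 CPM. The means were 9.97 ± 32.4 and 12.6 ± 40.96 CPM (SD over cells), a log2 ratio of -0.31. That ratio became 1.41 without the highest cell, a control cell, so its direction rested on 1 neuron. No SNT cell exceeded the highest control cell.

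Galr1 and high Gal were not counted in the same neuron, but only 6 of the 41 day 3 SNT cells had a count of Galr1. None of the 22 day 3 cells with Gal above the control range had a count of Galr1, and none of the 30 with raised Atf3 did. The share of genes counted in as few cells that also miss these 22 was not computed, and all 22 are among the 30. The 5 SNT cells above 10 CPM of Galr1 had Gal between 10.2 and 80.2 CPM and Atf3 between 2.03 and 23.04 CPM. They shared Calca between 1901 and 7151 CPM and Nefh of at most 149 CPM, with Mrgprd, a marker of nonpeptidergic neurons, at 44.7 CPM or less. P2rx3 was between 16.7 and 1133 CPM in them. The 3 control cells also carried Calca, between 3538 and 18006 CPM. Calca did not set the Galr1 cells apart. Cells without a count of Galr1 carried it too, such as SNT cells at 1903 and 8579 CPM and a control cell at 15527 CPM.

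**Figure D4:**
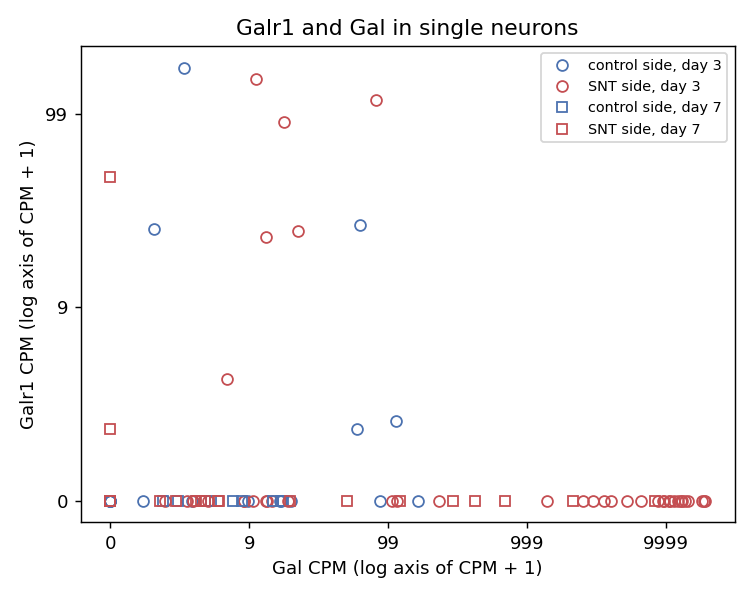
Galr1 against Gal in each kept cell of both sides and days, in CPM on log axes of CPM + 1, with cells at 0 overlapping on the lower axis. Every cell with Galr1 lies at or below 113 CPM of Gal, and all cells with higher Gal lie at 0 of Galr1.

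At day 7 Galr1 was nearly absent. On the SNT side 2 of 33 cells had a count, 1 of them at 46.4 CPM from 21 reads and the other with 1 read. The first again carried Calca (9417 CPM) and neither Gal nor Atf3, but its Nefh was at 2249 CPM. All 14 control cells were at 0, which, read as up to 3 cells, allows a share of cells with a count of up to 21.4%. In summed counts the SNT side was at least 3.93-fold higher than the limit of 3 counts over the control group, with 21 of its 22 counts in 1 cell.

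Galr2 was near the limit of detection throughout. In the pools 1 read fell in SNT library 2 and none elsewhere, where a count of 0 over the 3 control libraries allows up to 1.41 CPM, and the gene was too low to be tested. At day 3 it had counts in 7 of 41 SNT cells (means 0.68 ± 2.21 CPM) and 1 of 18 control cells (0.0993 ± 0.421 CPM). The 2 highest cells, at 11.4 and 8.196 CPM from 7 reads each, had over 1000 CPM of Mrgprd, low Atf3 and Gal near 8 CPM, and the control cell with Galr2 had 1568 CPM of Mrgprd too. Of the 7 cells, 3 had Gal above the control range, at 1 to 3 reads of Galr2. At day 7, 6 of 33 SNT cells and 4 of 14 control cells had counts, none above 3.108 CPM, and a difference was not detectable at this depth. Galr1 and Galr2 were counted together in 1 cell of each day.

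The order of the Gal means was day 3 SNT, day 7 SNT, day 3 control and day 7 control in single cells, and the SDs over cells exceeded the means in each. For Galr1 the order was day 3 control, day 3 SNT, day 7 SNT and day 7 control, and for Galr2 day 3 SNT, day 7 control, day 7 SNT and day 3 control. No neighbours in the receptor orders were apart by more than the larger of their SDs.

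Of the 8 genes listed for the galanin system, 7 were in the table and 4 could be tested in the pools, of which 3 were called higher and none lower (against 8.83% of all genes tested called higher, with a median log2 of 3.88 against 0.02 over all genes). These 3 were the members Gal and Galr1, reported above, and Gpr151. The list was chosen with earlier results of these data known, so the count is no evidence of a rise of the system. The third receptor gene, Galr3, and the galanin-like peptide gene Galp had 0 counts in all pools and kept cells, which allows at most 0.622 CPM over the SNT pools. Kiss1r, a kisspeptin receptor of the same branch of receptors, was not called (log2 -1.57, SE 0.92).

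Gpr151, an orphan receptor related in sequence to the galanin receptors, was above its control range in the same cells as Atf3. In the pools it had 331, 363 and 362 CPM on the SNT side and 13.8, 13.1 and 12.4 CPM opposite, which the edgeR fit put at a log2 change of 4.89 (SE 0.22) with an adjusted p of 1.5e-20. At day 3 it exceeded its highest control cell (24.4 CPM) in 30 of 41 SNT cells, and these were the same 30 with raised Atf3. At day 7 it exceeded its highest control cell (1.96 CPM) in 12 of 33 cells, again the same 12. The share of all genes that reach these numbers, or the same cells, was not computed. Of the genes compared, 1.89% reached the 22 cells of Gal at day 3 and 12.9% its 8 cells at day 7. These are upper limits for the shares at 30 and 12 cells and do not cover a match of cells. Whether the match is particular to Gpr151 was not tested. In the 30 and 12 cells Gpr151 ranged from 64.7 to 563 CPM at day 3 and from 32.8 to 557 CPM at day 7. Gal was above the control range in 22 of the 30 and 6 of the 12.

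**Figure D5:**
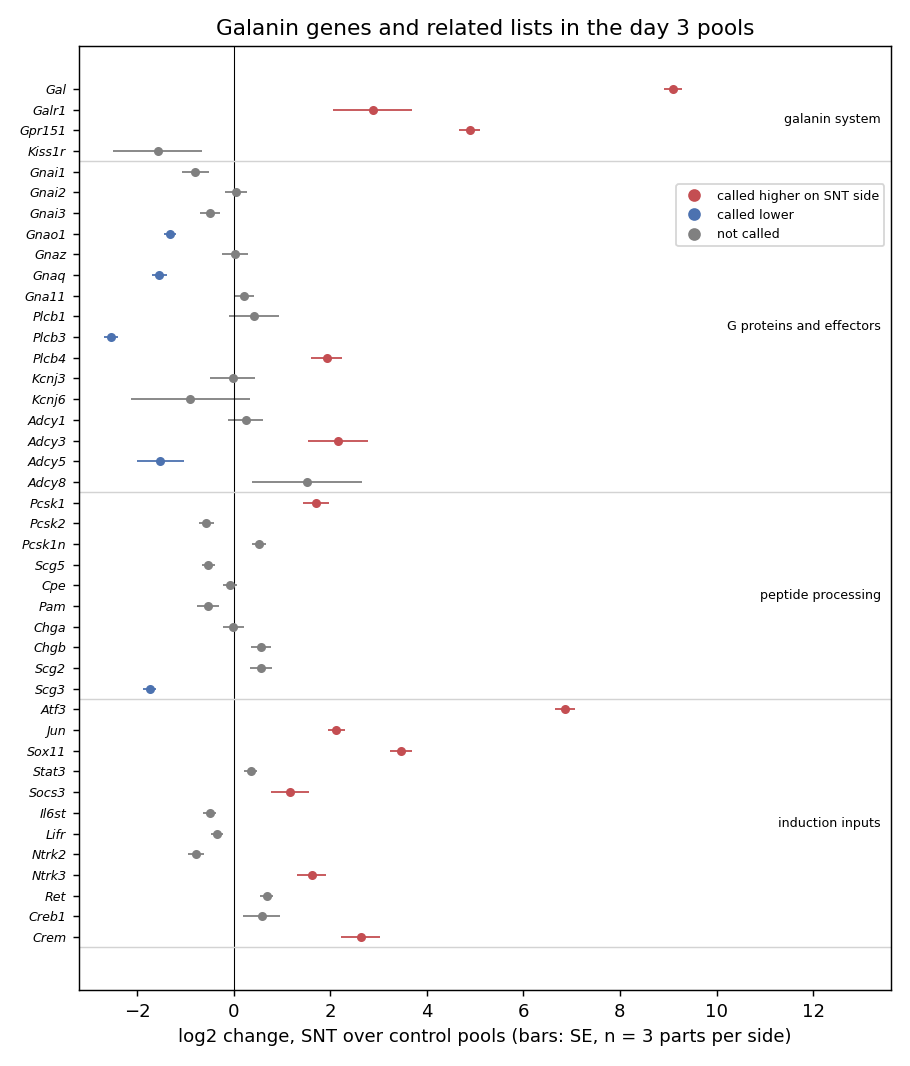
Log2 change of the SNT over the control pools at day 3 for tested genes of 4 lists, with bars of 1 SE and n = 3 parts per side, coloured by call. Gal lies at 9.10, above Atf3 at 6.86 and Gpr151 at 4.89, and the peptide processing genes lie between -1.74 and 1.70.

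The genes listed as possible inputs to Gal induction moved unevenly in the pools. Of 15 listed, 13 were tested, 6 were called higher and none lower (median log2 0.69), where 8.83% of all genes tested were called higher. Besides Atf3 (log2 6.86, SE 0.21), Sox11, Jun and Crem, all transcription factors, rose by 3.469, 2.13 and 2.63. Socs3, a feedback inhibitor of cytokine signalling, rose by 1.16, whereas Stat3, the factor that such cytokines activate, was at 0.35 and their shared receptor subunit Il6st at -0.50, neither called. Ntrk3, a neurotrophin receptor gene, rose by 1.62. In the single cells the log2 ratios of means were -0.24 for Ntrk3 and 0.69 for Socs3 at day 3, and 1.18 and -0.60 at day 7. The cytokine genes Lif and Il6 were too low to be tested.

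Of the 10 genes listed for the machinery that cuts and packs peptide precursors such as that of galanin, 6 had an adjusted p below 0.05 in edgeR's quasi-likelihood test. With the limit on the log2 change, 1 was called higher and 1 lower (median log2 -0.04), where 15.9% of all genes tested were called. Pcsk1, a convertase that cleaves at dibasic sites like those in capitals above, rose by 1.70 (SE 0.27), and Scg3, a granule protein, fell by 1.74 on the log2 scale (SE 0.14). Pcsk2 (-0.56), the carboxypeptidase gene Cpe (-0.07) and the amidating enzyme gene Pam (-0.53) had log2 changes within 1 and were not called. In the single cells the log2 ratios of means for Pcsk1 were 0.68 at day 3 and -0.68 at day 7, and for Scg3 -1.05 and -0.85.

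Among the G proteins and effectors through which galanin receptors act, 16 of 17 were tested, with 2 called higher and 4 lower (median log2 0.01), where 15.9% of all genes tested were called. The G protein genes Gnao1 (log2 -1.32) and Gnaq (-1.53) fell, as did Adcy5 (-1.51) and Plcb3 (-2.54), a phospholipase C downstream of Gq. Plcb4 rose by 1.93 and Adcy3, an adenylyl cyclase, by 2.16. In the single cells of day 3 the log2 ratios of means were -1.37 for Plcb3, -1.08 for Gnaq, -1.11 for Gnao1, -1.39 for Adcy5, 0.34 for Plcb4 and 1.53 for Adcy3. At day 7 they were -2.29, -0.03, -0.16, 0.01, 0.03 and 0.27 in the same order.

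The genes whose levels over the 41 SNT cells of day 3 were most like Gal, by Spearman's rho over 9974 genes above 10 CPM in at least 10 cells, were Cacna2d1 (0.83), a calcium channel subunit, and Sprr1a (0.82). Wt1, Tuba1a, Tmem74b, Sbno2, Tmsb4x, Tmem88b, Slc6a4 and Man2a2 followed at 0.70 to 0.72. The cells share a preparation and differ in depth, and no test was made. The same search over the 33 cells of day 7, with 18 of them tied at 0 of Gal, gave Hyal2 (0.64), 1110046J04Rik (0.58) and Arf2 (0.55) first, and the lists of 10 had no gene in common.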

How the data were processed

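The data are 117 single neurons and 6 pooled libraries. The members and all gene lists were chosen with earlier results of these data known. Per the labels the authors used CASAVA 1.8.2, Bowtie2 and RSEM with build mm9. They deposited a table named TPM whose values are expected counts: library totals differ, and whole numbers (within 1e-09) make up 60.7% to 93.6% of each library's nonzero values. Side and day came from titles and column names. The protocol label of the day 7 cells names both days. The pools held 106 neurons per side by the labels and 50 by the paper.

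Expected counts of the pools were rounded and tested with edgeR 4.0.16 (R 4.3.3) over genes averaging 1 CPM or more, with TMM factors and Benjamini-Hochberg adjustment. Calls needed an adjusted p below 0.05 with a log2 change past 1. SE is the log2 change over the root of F. CPM printed for the members are not TMM-scaled. On simulated counts, with the same dispersion for every gene, most of the known changes were recovered. Recovery was not examined by level, so it does not speak for genes with few reads such as Galr1. Cells were described with Python 3.11.15 and scipy 1.17.1, with exact Clopper-Pearson or Poisson 95% intervals and no test. A count of 0 was given the limit of 3 counts or cells instead. Named genes are the members, the listed genes, the markers and the 10 genes most like Gal per day. One listed gene is counted in its lists and not reported by name here. Alternatives were DESeq2 1.42.0, other scalings, filters and pseudocounts, a replicate block, each pooled library left out, outlier cells, medians, thinning and each sex. No 2 libraries held identical values.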

Additional observations from a re-analysis of the deposited data

How the results depend on the processing

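In the pools no alternative that tested them changed the call of Gal or Galr1. The log2 change of Gal lay between 8.85 and 9.37 with each library left out, and that of Galr1 between 2.31 and 3.64. With a prior count of 2 Galr1 was at 1.99. The number of genes called lay between 1884 and 2148 with a library left out, against 2154. Scaling by library size alone called 978 genes higher and 1265 lower, against 1193 and 961, and moved the median log2 of all genes from 0.02 to -0.14. Galr1 fell below a filter of 10 CPM, and Galr2 passed only without a filter (log2 1.64, SE 2.45, adjusted p 0.69 by edgeR). Replicate numbers were shared by both sides but did not pair the libraries (correlations of deviations 0.06, -0.02 and -0.01). With a replicate block Gal was at 9.09, Galr1 at 2.89 (adjusted p 0.00944 by edgeR) and 2008 genes were called.

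In cells at day 3, the log2 ratio of Gal was 6.65 with outlier cells, the share of SNT cells was 100.0% at 1 CPM and 58.5% at 100 CPM against 80.5% at 10 CPM. The Galr1 ratio was 1.41 without the highest cell. The Galr2 ratio of 0.61 became 0.00 with medians and 1.97 with a pseudocount of 0.1 CPM, and its share of 2.44% became 0 at 100 CPM. At day 7 the Gal ratio of 5.90 turned to -1.98 with medians, and was 4.27 without the highest cell, 4.87 in females and 6.63 in males. Its share of 24.2% became 45.5% at 1 CPM. The day 7 Galr1 ratio, 1.29 against a control side at 0, was 0.00 with medians, 3.95 with a pseudocount of 0.1 CPM, 0.06 without the highest cell, 0.12 in females and 1.90 in males, and its share of 3.03% became 0 at 100 CPM and in females. The Galr2 share of 0 became 18.2% at 1 CPM. Thinned to 200000 counts, 87.8% of day 3 and 36.4% of day 7 SNT cells kept a Gal count. Of the 10 genes most like Gal, 6 and 3 (day 3 and day 7) were shared with Pearson correlation and 4 and 3 with cells of both sides.

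The cause of these shifts was not tested. Galr1 had 3 reads in the control pools and Galr2 at most 7 in any cell. Thinned to 200000 counts, the share of day 3 cells with a Galr1 count stayed at 14.6% on the SNT side and went from 27.8% to 16.7% on the control side.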

Other observations

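The 7 SNT-side and 4 control-side cells that the authors removed as outliers at day 3 were in none of the comparisons above. Their Gal ranged from 5.13 to 179 CPM (median 32.1) on the SNT side and from 25.8 to 250 CPM (median 53.7) on the control side, so none reached the high band of the kept SNT cells and the highest was a control cell. Galr1 and Galr2 were at 0 in all 11. Their Atf3 ranged from 11.99 to 255 CPM on the SNT side, below the 951 CPM at which the raised kept cells began. Its median of 82.2 CPM there was above the limit of 75.7 CPM used for raised Atf3. The SNT outlier with 179 CPM of Gal also passed the limit of 164 CPM set by the kept control cells. With the control outlier at 250 CPM included, that limit would lie above the kept SNT cell at 230 CPM. The count of 22 cells with Gal above the control range thus depends on the removal. Totals of the 11 outliers lay between 223967 and 666521 counts.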
